A study of Mus musculus with 6 samples.

Results

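Tex10 carrying an HA tag and H3K4me3, a histone mark of promoters, were profiled with ChIP-seq in day 2 mouse PGCLCs, cells made in culture that resemble primordial germ cells. Described here are the HA-Tex10 intervals whose centre lay just upstream of a coding gene's start. They were chosen by 3 properties of the deposited interval lists. An interval had to lie on chromosomes 1 to 19 and share at least 1 bp with an H3K4me3 interval, and its centre had to lie -1000 to -1 bp, by gene strand, from the nearest transcription start site (TSS) of a protein-coding transcript. Where a 1 Mb window held 10 or more of the HA-Tex10 intervals, those in it were not taken. Of 4331 HA-Tex10 intervals in all, 4129 lay on these chromosomes, 2863 of those met H3K4me3, 815 of those were upstream, and 617 remained after 198 intervals in dense windows were left out. The 617 upstream intervals were nearest to 600 genes.

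The cells were untreated and of the 129Sv/J strain, and Tex10 carried an HA tag at its C terminus in all groups. Of the 6 samples, 2 were precipitated for the HA tag, 2 for H3K4me3, and 2 were input DNA, not analysed here. Each antibody is represented by 1 list without peak heights or p-values, so there is no spread between replicates to set beside a value, the depth is unknown, and no test compares samples. The 95% Wilson intervals given for shares reflect counting error only, and neighbouring intervals or genes were treated as independent. H3K4me3 lay within 1 kb of a TSS at 9 of 11 germ cell and pluripotency markers, among them Prdm1, Prdm14, Tfap2c, Pou5f1 and Nanog, but not at Dppa3 or Nanos3. It also lay at 6 of 6 mesoderm markers, 3 of 4 neural, 3 of 5 endoderm and liver, 1 of 4 blood and muscle and 2 of 4 fibroblast markers, so H3K4me3 was not limited to markers of the labelled cell type.

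Tex10 is a subunit of a nuclear complex with Pelp1, Wdr18, Senp3, Las1l and Nol9 that acts in maturation of the large ribosomal subunit, and in pluripotent cells it is also known as a chromatin-bound partner of Sox2. H3K4me3 is deposited by SET1 and MLL methyltransferases on nucleosomes around active and poised promoters. The stretch just before a start site is where promoter-bound factors such as NRF1, ETS proteins, SP proteins and NFY recognise DNA, and it is often depleted of nucleosomes.

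The following stretches of upstream intervals show such recognition letters in place. They are GRCm38.p6 reference sequence from RefSeq, written 5′ to 3′ along the gene, limited to the part of the interval that lies before the TSS and outside exons, both as GENCODE gives them. Capitals mark the named motif on either strand. Akap8 encodes a nuclear scaffold protein that anchors protein kinase A, and its stretch at chr17:32321239-32321423 (minus strand) is shown for NRF1 (CGCNTGCG) and ETS (CCGGAAG), with 3 matches in all. The centre of the Akap8 interval lies at -32 bp from the GENCODE TSS and 21 bp downstream of the RefSeq one. Thap8 is shown for SP (GGGGCGGGG) at chr7:30279817-30280093 (plus strand). Psmd5, a proteasome assembly gene, holds 2 copies of the ZBTB33 motif (CTCGCGAG) at chr2:34870963-34871107 (minus strand).
Akap8: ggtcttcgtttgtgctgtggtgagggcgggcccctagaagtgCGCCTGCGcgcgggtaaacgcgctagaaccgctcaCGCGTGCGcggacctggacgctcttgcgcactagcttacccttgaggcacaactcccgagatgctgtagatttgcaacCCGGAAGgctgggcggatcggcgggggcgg
Thap8: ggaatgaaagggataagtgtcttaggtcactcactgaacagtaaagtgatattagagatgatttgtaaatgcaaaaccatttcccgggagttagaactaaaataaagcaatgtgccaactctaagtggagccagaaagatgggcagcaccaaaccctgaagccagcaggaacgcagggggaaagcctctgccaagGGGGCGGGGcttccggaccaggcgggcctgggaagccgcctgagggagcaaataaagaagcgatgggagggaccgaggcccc
Psmd5: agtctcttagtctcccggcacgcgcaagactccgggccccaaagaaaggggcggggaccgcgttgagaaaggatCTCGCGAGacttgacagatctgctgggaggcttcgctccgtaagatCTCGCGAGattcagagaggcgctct

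A further interval is shown because its gene stands in a list described further on. Axin2 encodes a scaffold that limits Wnt signalling, and its whole interval at chr11:108920568-108920629 (plus strand) holds 1 match to the shorter SP core (GGGCGG). It lies in an intron of a coding gene, and its centre is 250 bp downstream of the nearest RefSeq TSS of Axin2, so it is upstream only of a start site in GENCODE.
Axin2: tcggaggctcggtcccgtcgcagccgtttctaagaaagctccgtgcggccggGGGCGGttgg

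The upstream intervals crowded towards the start site. Their centres lay at a median of -132 bp, with an interquartile range of -240 to -57 bp. Of the 617, 251 (40.7%) had their centre within 100 bp of the TSS, 164 (26.6%) between 100 and 200 bp upstream and 88 (14.3%) between 200 and 300 bp. Only 39 (6.32%) lay farther than 500 bp. These positions were used to choose the intervals and are given as a description. The number of intervals per 50 bp fell from 140 in the last step before the TSS to 111 and 91 in the steps before it, and the first step after the TSS held 162.

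**Figure D1:**
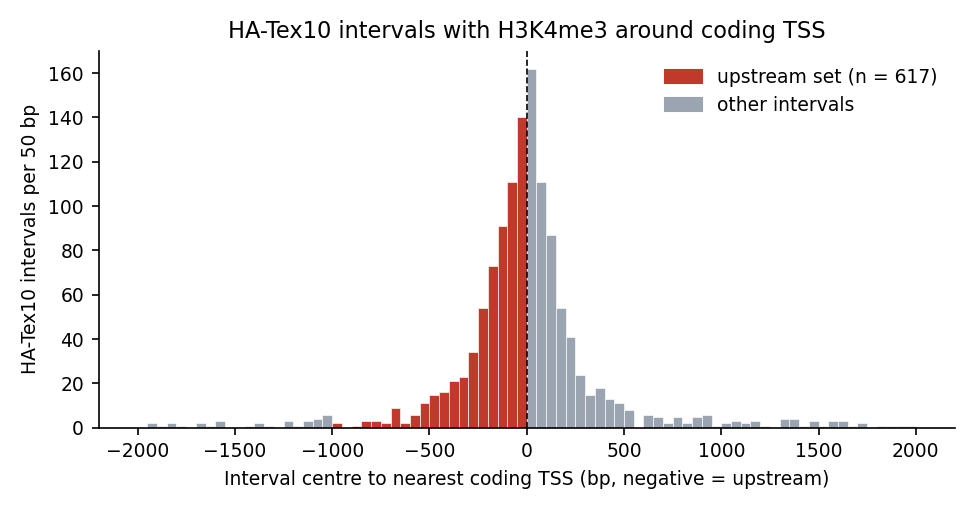
Number of HA-Tex10 intervals with H3K4me3 on chromosomes 1 to 19, outside dense windows, by distance of their centre from the nearest coding TSS in steps of 50 bp. The 617 upstream intervals are red, and the steps on both sides of the TSS are the fullest, with 140 intervals before it and 162 after it.

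The edges of the choice cut through a continuous distribution. Just inside the near edge lay the intervals of Fastk, Cep55 and Top3b, each with its centre 1 bp before the TSS (279, 270 and 94 bp wide). Just outside lay those of U2surp, Pdhb and Ccdc127, with the centre on the TSS itself at 0 bp (239, 137 and 30 bp wide). At the far edge, Fzd2 (-975 bp) and U2af2 (-968 bp) were inside, and Rhpn2 (-1009 bp), Kmt2d (-1028 bp) and Crlf2 (-1035 bp) were outside. For the density rule, 35 upstream intervals lay in windows with 9 HA-Tex10 intervals and were kept, and 35 lay in windows with 10 and were left out.

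An upstream centre did not mean that the whole interval was upstream. Widths ran from 1 to 938 bp with a median of 239 bp and an interquartile range of 171 to 329 bp, and 292 of them (47.3%, 43.4 to 51.3%) contained the TSS. This was so for 87.3% of those centred within 100 bp and for 41.5% of those between 100 and 200 bp upstream. Among the 325 intervals that stopped short of the TSS, the median width was 201 bp. Of all upstream intervals, 40 (6.48%) were narrower than 50 bp, and 1 of a pair at Gabpa was 1 bp wide. Whether an interval is a call on pooled reads or the overlap of calls in both samples is not given in the sources used here. In the second case a width would be that of an overlap, and the order of widths below would be one of overlaps.

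Annotation placed 341 of the 617 centres (55.3%) between annotated genes. Another 113 (18.3%) fell in an exon and 95 (15.4%) in an intron of a coding gene, from an overlapping gene or from a transcript starting farther upstream. A further 45 (7.29%) fell in an exon and 23 (3.73%) in an intron of a non-coding gene. With the TSS of any annotated gene taken as the reference, 577 of the 617 centres were still upstream of the nearest one and 40 were not. RefSeq promoters of the same gene symbol were found for 482 intervals, and 406 of these (84.2%) had their centre upstream of the nearest RefSeq TSS of that gene. Of the 482, 399 lay -1000 to -1 bp from it and 83 did not, so which start site was annotated decided the choice for those 83. Of 73 intervals at genes of the lists below, 49 were matched, and 9 of these were not upstream by RefSeq, at Rpl26, Rpl5, Wdr75, Cox6b2, Uqcrc1, Psmd8, Prpf19, Zfp30 and Axin2.

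Few upstream intervals were mostly repeated by a count of words. In 12 of 617 (1.94%, 1.12 to 3.37%), over 50% of the 32-base words occurred more than once in the assembled chromosomes. Copies missing from the assembled chromosomes were not counted, so repeats could be undercounted. Bases that the reference marks as repeats (soft-masked) were present in 262 of 617 (42.5%), though their median share per interval was 0. The widest interval that was not mostly repeated by the count of words was at the predicted gene Gm21738 on chromosome 14. It still had 34.3% repeated words and a low GC content of 36.5%. Its 938 bp are therefore less certain in position than those of the other wide intervals, which had 0 to 11.1% repeated words.

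H3K4me3 intervals extended on both sides of the upstream Tex10 intervals. The H3K4me3 interval met was 1780 bp wide in the median, with an interquartile range of 1229 to 2550 bp, and its ends lay at medians of -662 bp and 1092 bp from the TSS. It covered the TSS in 555 cases (90%, 87.3 to 92.1%), and 465 Tex10 intervals (75.4%, 71.8 to 78.6%) lay wholly inside 1 H3K4me3 interval. Measured from the upstream end of the H3K4me3 interval as 0% to its downstream end as 100%, the centre sat at a median of 26.8% (interquartile range 11.7 to 45.4%). For intervals centred 0 to 1000 bp downstream of a TSS and chosen by otherwise the same rules (576 intervals), the median was 36.8% (21.7 to 58.0%). Since position was used to choose both sets, this difference is a description. At marked genes without HA-Tex10, the H3K4me3 intervals that covered the point 132 bp upstream of the TSS had a median width of 1585 bp (n = 6562), but a wide interval also meets others more often.

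**Figure D2:**
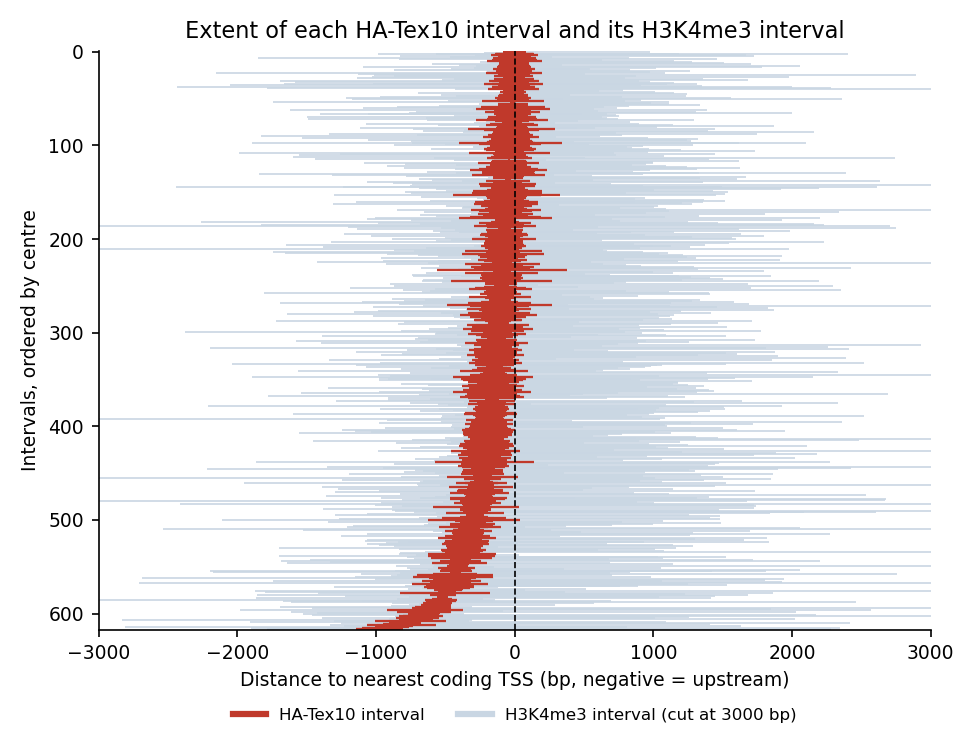
Each of the 617 upstream HA-Tex10 intervals (red) and the H3K4me3 interval it met (pale blue), drawn to scale against the nearest coding TSS and ordered by the interval's centre. Most red bars lie inside a blue bar that runs on past the TSS, and 292 red bars contain the TSS.

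In 62 cases the H3K4me3 interval met by the upstream Tex10 interval did not cover the TSS, ending before it in 48 and beginning after it in 14. Only the H3K4me3 interval with the most shared bases was read, so the 62 are not start sites shown to lack H3K4me3. At the Rgl2 interval centred at -379 bp, the one met ended 297 bp before the TSS. Another H3K4me3 interval, at chr17:33929548-33931664, covered that TSS. At Mrpl45, a mitochondrial ribosomal protein gene, the H3K4me3 interval met began 83 bp after the TSS. The 559 bp Tex10 interval, centred at -46 bp, reached into it. At Sde2, a gene of genome stability and splicing, the H3K4me3 interval met ended 327 bp before the TSS. The 621 bp Tex10 interval there was centred at -280 bp and contained the TSS.

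Start sites on the opposite strand stood close behind some of the genes, at a total share near that of marked genes without HA-Tex10. Of the 617 upstream intervals, 129 (20.9%, 17.9 to 24.3%) belonged to a TSS that had an opposite-strand TSS of another gene within 1 kb upstream. The partner was a coding gene in 63 cases (10.2%, 8.06 to 12.9%) and only a non-coding gene in 66 (10.7%, 8.50 to 13.4%). Among 11112 marked genes without HA-Tex10 the total was 18.5% (17.7 to 19.2%). Their coding and non-coding shares were 12.1% (11.5 to 12.7%) and 6.41% (5.97 to 6.88%). Here a marked gene is a coding gene on these chromosomes with H3K4me3 within 1 kb of a coding TSS. Of the downstream intervals, 165 (28.6%, 25.1 to 32.5%) had a partner. It was coding for 115 (20%, 16.9 to 23.4%) and only non-coding for 50 (8.68%, 6.65 to 11.3%). Part of the gap between both sides follows from the nearest-TSS rule, because at a pair of close TSS a centre counts as upstream only in the space between them.

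All 63 intervals with a coding partner had their centre between both start sites, as that rule requires, and 13 of them contained both. The gap between the start sites had a median of 326 bp (interquartile range 178 to 442 bp), against 125 bp for the coding pairs of marked genes without HA-Tex10, where no such limit applies. The widest such interval covered 773 bp at Top3a, a DNA topoisomerase gene, and Smcr8, an autophagy regulator, whose start sites lie 159 bp apart, and it contained both. Intervals also contained both start sites at Rpgrip1l and Fto (525 bp wide, gap 263 bp), at Mrpl2 and Klc4 (460 bp, gap 207 bp), at Anapc16 and Ascc1 (425 bp, gap 216 bp) and at the predicted genes Gm3435 and Gm3448 (581 bp, gap 153 bp), where 100% of the words were repeated and the position is uncertain. Rpgrip1l encodes a ciliary transition zone protein and Fto an RNA demethylase. At Atp7b and Alg11 (496 bp, gap 416 bp), Nup62 and Atf5 (454 bp, gap 430 bp), Mpc2 and Dcaf6 (453 bp, gap 572 bp), Ggps1 and Arid4b (410 bp, gap 366 bp) and Ncapd2 and Mrpl51 (400 bp, gap 464 bp) the interval did not reach both.

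Non-coding partners were of several kinds, with 19 antisense genes, 16 processed transcripts, 11 lincRNA genes and 8 bidirectional promoter lncRNA genes among the 66. In 42 of the 66 cases the centre lay between the start sites. Rps2 had an interval of 116 bp centred at -389 bp that overlapped the small nucleolar RNA gene Snora78, beside the antisense gene Snhg9. The interval of Polr3d, a subunit of RNA polymerase III, was 237 bp wide, centred at -216 bp, and overlapped the microRNA gene Mir320. These were the 2 upstream intervals that overlapped an annotated small RNA gene.

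The widest intervals that were not mostly repeated stood at genes of varied roles. After Gm21738 and Top3a, they were at Smg9 (755 bp, nonsense-mediated RNA decay), Akap8 (743 bp), Usp38 (722 bp, a deubiquitinase), Hmgb2 (713 bp, a chromatin architectural protein) and Sap30 (673 bp, a Sin3 corepressor subunit). Birc6 (664 bp), Ube2s (649 bp, which extends ubiquitin chains for the anaphase-promoting complex), Rab11fip1 (631 bp), Sde2 (621 bp), Ist1 (587 bp, ESCRT), Cox20 (576 bp), Klf10 (575 bp) and Mrpl45 (559 bp) followed. Of these 15, 13 contained the TSS. Those at Ube2s, centred at -502 bp, and Cox20, centred at -445 bp, ended 178 and 158 bp before it. Usp38, Hmgb2, Sap30, Rab11fip1 and Ist1 lie on chromosome 8.

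A pair of upstream intervals stood at 17 genes, and no gene had more. At Fzd2, a Wnt receptor gene, one was 340 bp wide at -975 bp and the other 156 bp wide at -9 bp, both inside an H3K4me3 interval of 4071 bp. At Ddit4, a stress-induced inhibitor of mTORC1, they were centred at -77 and -836 bp. Rab1a, a small GTPase of the early secretory pathway, had them at -69 and -458 bp. Cbx7, a Polycomb subunit, had its pair at separate start sites, at -113 and -268 bp from each. Gabpa, which encodes an ETS family factor, had an interval of 381 bp at -192 bp and the 1 bp interval at -41 bp, each measured from its own TSS. The other genes with a pair were Efnb2, Fubp3, Mcph1, Npc1, Ntmt1, Rbx1, Rgl2, Sall4, Slc3a2, Wfs1, Zfp41 and Zfp960. Of the 600 genes with an upstream interval, 23 also had a downstream one, beside 561 of all 12966 marked genes (4.33%).

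Gene lists were read against all marked genes. Of 12966 marked genes, 600 (4.63%) were nearest to an upstream interval and 561 (4.33%) to a downstream one. The lists were small, and the counts are a description with no test. The Wilson interval lay above 4.63% for 5 of 17 lists, namely chaperones, aminoacyl-tRNA synthetases, DNA replication, Wnt and the Myc network. In the same order, 3 (4.17%), 1 (2.7%), 2 (4.88%), 3 (10%) and 2 (20%) of their marked genes had a downstream interval. The 4 Wnt genes include Axin2, whose interval is upstream only by GENCODE. The 8 chaperone genes include Hspg2, which encodes no chaperone, and Hspa1b, whose interval is mostly repeated. With counts this low, the place of these 2 lists above 4.63% may rest on such genes. Their shares were not recalculated without them.

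Each of the lists on protein synthesis held genes with an upstream interval, at low counts. Among cytosolic ribosomal protein genes 6 of 78 marked genes had an upstream interval (7.69%, 3.57 to 15.8%), namely Rpl5, Rpl7, Rpl26, Rpl30, Rpl37 and Rps2, and 17 (21.8%) had a downstream one. The centres were at -2 bp in Rpl26, -9 bp in Rpl7, -52 bp in Rpl30, -169 bp in Rpl5, -227 bp in Rpl37 and -389 bp in Rps2. In the ribosome assembly and nucleolus list the count was 4 of 49 (8.16%, 3.22 to 19.2%). Npm1, which encodes the nucleolar chaperone nucleophosmin, had 419 bp at -127 bp, Nop56, a core protein of box C/D snoRNPs, had 326 bp at -295 bp, Wdr75 had 352 bp at -158 bp, and Nolc1 had 51 bp at -48 bp. Aminoacyl-tRNA synthetase genes, whose products load tRNAs, had 5 of 37 (13.5%, 5.91 to 28%), at Farsb, Lars2, Mars, Sars and Tars. Their centres were all within 111 bp of the TSS, at -111, -77, -17, -94 and -107 bp in that order. Translation factors had 4 of 65 (6.15%, 2.42 to 14.8%), at Eif1, Eif2s2, Eif4g2 and Etf1. The first 3 of these intervals were only 24, 50 and 63 bp wide. Mitochondrial ribosomal protein genes had 2 of 78 (2.56%, 0.706 to 8.88%), Mrpl2 and Mrpl45.

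Genes of protein folding and turnover gave 8 of 72 chaperone genes (11.1%, 5.74 to 20.4%) and 4 of 45 proteasome genes (8.89%, 3.51 to 20.7%). The chaperone genes were Hsp90ab1, Hspa1b, Hspa9, Hspbp1, Cct2, Dnajc5 and Dnajc14, and Hspg2, which the name pattern caught but which encodes the matrix proteoglycan perlecan. Hspa1b, a heat-inducible Hsp70 gene, had 349 bp centred at -164 bp, and Hsp90ab1, the constitutive cytosolic Hsp90 gene, had 199 bp at -70 bp. Both intervals contained the TSS, but 58.5% of the words in that of Hspa1b were repeated, and its position is uncertain. In the proteasome list, Psmd8 (299 bp at -53 bp) and Psmd9 (145 bp at -9 bp) were joined by the assembly factor gene Psmg1 (501 bp at -55 bp) and by Psmd5 (412 bp at -138 bp), and all 4 intervals contained the TSS.

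DNA replication genes had 5 of 41 (12.2%, 5.32 to 25.5%), at the helicase genes Mcm4, Mcm5 and Gins4, the primase gene Prim1 and the clamp loader gene Rfc4. The interval between Mcm4 and Prkdc, which encodes the catalytic subunit of DNA-dependent protein kinase, was 332 bp wide in a gap of 489 bp. Splicing and hnRNP genes had 6 of 66 (9.09%, 4.23 to 18.4%), at Hnrnpa1, Hnrnpa3, Prpf19, Sf1, Snrpc and U2af2, and 12 (18.2%) had a downstream interval. Hnrnpa1 shares its promoter region with Cbx5, the HP1 alpha gene, with 616 bp between the start sites, and its interval of 215 bp was centred at -271 bp. Oxidative phosphorylation genes had 3 of 86 (3.49%, 1.19 to 9.76%), at Atp5g1, Cox6b2 and Uqcrc1. In that list, 4 genes had an upstream interval in a dense window, which the choice left out. The same held for 4 zinc finger and 3 cytosolic ribosomal protein genes. It held for 2 chaperone genes, 1 DNA replication gene and 0 genes of the synthetase, Wnt and Myc network lists. Numbered zinc finger genes had 13 of 349 (3.72%, 2.19 to 6.27%), an interval that includes the 4.63% of all marked genes. One of these, Zfp36, encodes an RNA-binding protein that destabilises transcripts, and Zfp143 encodes a promoter-binding factor.

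Upstream intervals also stood at developmental and signalling genes. The Wnt list had 4 of 30 (13.3%, 5.31 to 29.7%). Axin2 had 62 bp that ended 171 bp before the GENCODE TSS, Fzd7 had 130 bp at -488 bp, Gsk3a, a kinase of the beta-catenin destruction complex, had 420 bp at -456 bp, and Fzd2 had the pair given before. The Myc network list had 2 of 10 (20%, 5.67 to 51%), both at antagonists of Myc, with Mnt at -655 bp (390 bp wide) and Mxd4 at -375 bp (293 bp wide). Among pluripotency genes the count was 2 of 23 (8.70%, 2.42 to 26.8%). Sall4 had 47 bp at -135 bp and 64 bp at -423 bp, and Tbx3 had 135 bp at -267 bp, in H3K4me3 intervals of 4005 and 3488 bp. Of 15 genes of H3K4 methyltransferase complexes, Wdr5, the scaffold they share, had an interval of 127 bp at -138 bp. No germ cell gene of 10 marked ones had an upstream interval, which allows a share of up to 30%. No clustered histone gene of 65 did (up to 4.62%), and the Wilson interval of 0 to 5.58% includes the 4.63% of all marked genes. In this list, 4 genes had an upstream interval in a dense window, which the choice left out.

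**Figure D3:**
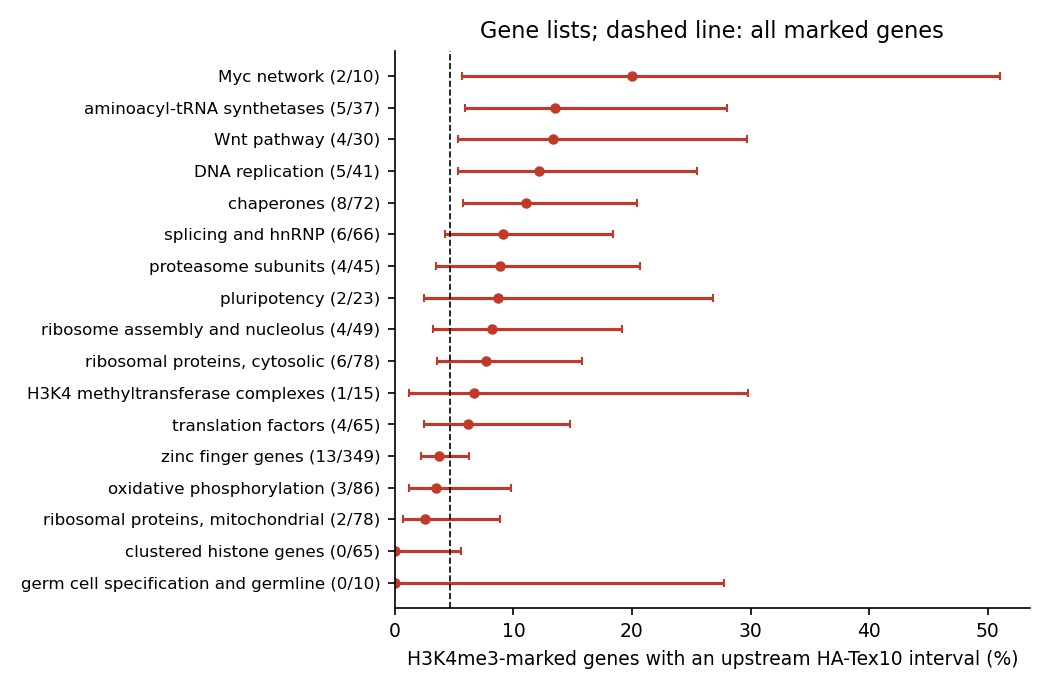
Share of H3K4me3-marked genes of each list that were nearest to an upstream HA-Tex10 interval, with 95% Wilson intervals and the count in brackets; the dashed line is the 4.63% of all marked genes. The interval lies above the line for 5 of 17 lists, which hold 2 to 8 genes with an upstream interval. Axin2, Hspg2 and Hspa1b, which the text qualifies, are counted.

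The upstream intervals were spread over all 19 chromosomes, with 11 on chromosome 12 at the least and 69 on chromosome 11 at the most. On chromosome 8, which also held 102 of the 198 intervals left out in dense windows, 59 of 741 marked genes (7.96%, 6.22 to 10.1%) had an upstream interval. On the other chromosomes together the share was 541 of 12225 (4.43%, 4.07 to 4.8%), from 2.23% on chromosome 12 to 6.04% on chromosome 11. The higher share on chromosome 8 thus remained after dense windows were left out, and its cause was not tested.

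**Figure D4:**
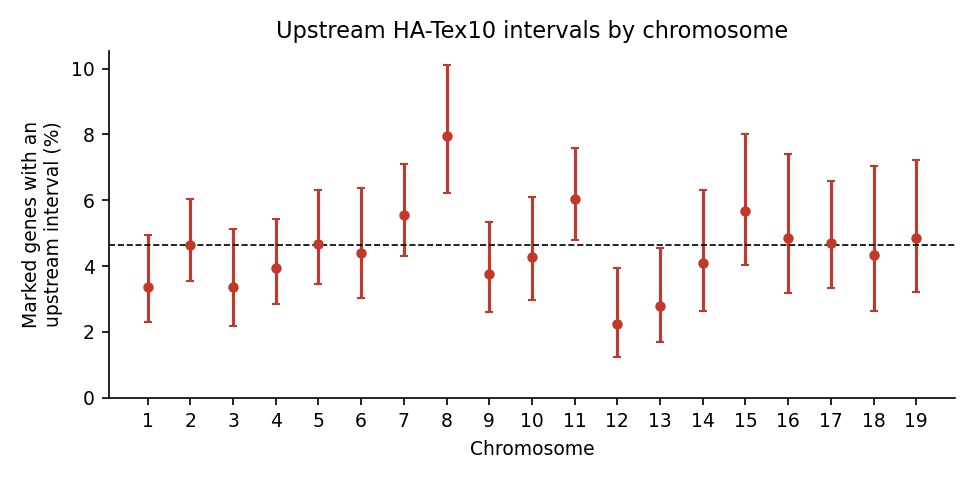
Share of H3K4me3-marked genes with an upstream HA-Tex10 interval on each chromosome, with 95% Wilson intervals; the dashed line is the 4.63% of all marked genes. Chromosome 8 is highest at 7.96% and chromosome 12 lowest at 2.23%.

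The DNA under the upstream intervals was rich in GC. The central 200 bp had a median GC content of 62.5% (interquartile range 56.5 to 66.5%) and a median ratio of observed to expected CpG of 0.759. In 200 bp windows centred 132 bp upstream of the 5′-most TSS of the 11112 marked genes without HA-Tex10, the medians were 59% and 0.680. For centres within 100 bp of the TSS the upstream intervals had 64% and windows at the same distance also 64%. Between 200 and 300 bp upstream the values were 60% and 53.5%, and beyond 500 bp they were 57.5% (39 intervals) and 46.5%. The upstream intervals were chosen to meet H3K4me3, while the share of windows with H3K4me3 at their centre fell from 67.1% at the nearest distance to 27.3% at the farthest. Among windows with H3K4me3 there, the median GC content was 66% within 100 bp, 58.5% between 200 and 300 bp and 50.5% beyond 500 bp.

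A search of both strands for 19 motifs covered 200 bp around each interval's centre. The SP core is part of SP, and CREB contains the CRE core (TGACG). A match is a run of letters and not evidence of binding. The NRF1 letters were in 99 of 617 upstream intervals (16.0%, 13.4 to 19.2%), in 13.0% of downstream intervals and in 9.14% (8.62 to 9.69%) of the windows without HA-Tex10. The ETS letters were in 88 (14.3%, 11.7 to 17.2%), against 11.8% and 7.55% (7.07 to 8.06%). YY1 (AANATGGC) was in 6%, 6.94% and 3%, and CREB (TGACGTCA) in 3.08%, 2.08% and 1.55%. The CRE core was in 25.3%, 24.3% and 18.6%. The YY1 share was 2 times that of the windows here but 1.19 times in the central 100 bp. The longer SP motif was in 14.4% of upstream intervals, 7.47% of downstream ones and 14.6% of the windows. NFY (CCAAT) followed the same order, with 28.5%, 17.4% and 30.2%. For these last 2 motifs the share in upstream intervals was close to that in the windows, which lie on the same side of the TSS.

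Most of these letters become rarer away from the TSS at any promoter, so the shares were also read by distance. Windows were placed from the 5′-most TSS of a gene, but upstream intervals from the nearest coding TSS. By the 5′-most TSS of each gene, 476 intervals would have been upstream, against 617. Within 100 bp of the TSS, NRF1 was in 22.7% of 251 upstream intervals and 13.4% of windows at that distance, and ETS in 24.3% and 13.9%. Between 100 and 200 bp, ETS was in 9.15% and 6.87%, and NRF1 in 14% and 8.30%. Beyond 500 bp, NRF1 was in 7.69% of 39 intervals and 0.648% of windows, and ETS in 0 of 39 (upper limit 7.69%), against 1.58% of windows. The SP core was at 61.4% and 58.7% within 100 bp, 50% and 26.2% between 200 and 300 bp, and 41.0% and 8.48% beyond 500 bp. The share was higher in the upstream intervals in 5 of 5 distance classes for NRF1, for the SP core and for the CRE core. It was so in 4 of 5 for ETS and for SP, and in 3 of 5 for NFY, YY1 and CREB. Within 100 bp, YY1 was in 8.37% of upstream intervals and 6.01% of windows, and CREB in 4.38% and 2.83%. SP was lower in the upstream intervals within 100 bp, at 15.9% against 19.8%, and higher beyond 500 bp, at 12.8% against 1.78%.

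Upstream intervals were also set against only those windows that had H3K4me3 at their centre. The share was higher in the upstream intervals in 5 of 5 classes for NRF1. It was so in 4 of 5 for ETS, the SP core and the CRE core, and in 3 of 5 for SP and NFY. Within 100 bp of the TSS these windows held NRF1 in 14.6%, ETS in 16.4% and the SP core in 64.7%, the last now above the 61.4% of upstream intervals. Between 100 and 200 bp they held ETS in 8.37% (7.72 to 9.07%), close to the 9.15% of upstream intervals. Beyond 500 bp they held NRF1 in 1.19% and the SP core in 17.6%, so part of the gap to windows of any kind went with H3K4me3, which the choice of intervals had used.

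**Figure D5:**
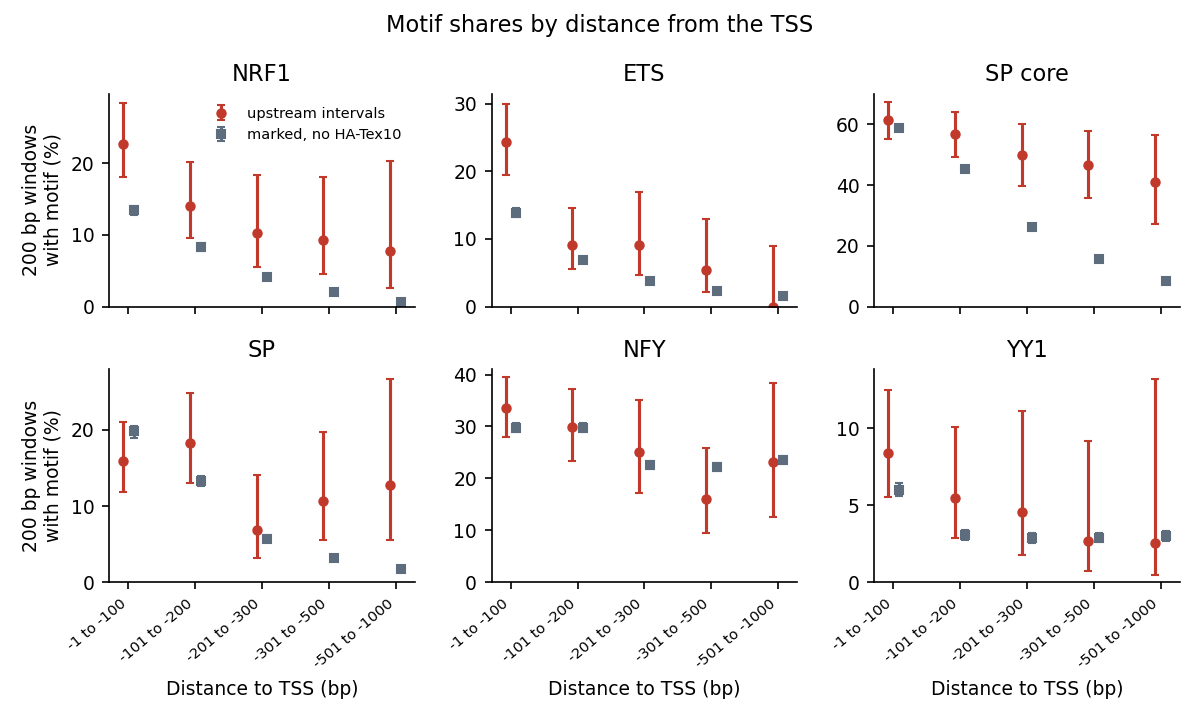
Share of 200 bp windows with each of 6 motifs, by distance from the TSS, in upstream HA-Tex10 intervals (red circles) and in windows at the same distance at marked genes without HA-Tex10, whether or not H3K4me3 reached the window (grey squares), with 95% Wilson intervals. Distance is from the nearest coding TSS for red and from the 5′-most TSS of the gene for grey. ETS falls from 24.3% near the TSS to 0 beyond 500 bp in the red set, while the SP core stays at 41.0% there against 8.48% in grey.

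GC content moved with these shares, so upstream intervals and windows were also compared within 7 classes of GC content. These windows were all centred 132 bp upstream, so distance was not matched within a class. NRF1 was more frequent in the upstream intervals in 7 of 7 classes and ETS in 6 of 7. The CRE core was so in 5 of 7, the SP core in 4 of 7, SP in 3 and NFY in 3. The class from 75% GC held only 7 upstream intervals. Below 50% GC, NRF1 was in 3 upstream intervals, and from 50 to 55% in 4 (6.45% against 5.49%). Between 60 and 65% GC, where 167 upstream intervals fell, ETS was in 18% against 9.03%, NRF1 in 16.8% against 10.4%, and the SP core in 65.3% against 56%. Between 55 and 60% GC the SP core was in 34.5% against 41.4%. The TATA letters (TATAAA) were in 2.43% of upstream intervals and 4.34% of windows, the octamer (ATTTGCAT) in 0.486% and 0.954%, and the TCF/LEF letters (ATCAAAG) in 0.972% and 1.93%. The SOX letters (AACAATGG) were in 5 upstream intervals (0.81%, 0.347 to 1.88%), in 0.174% of downstream intervals and in 0.333% of windows (0.242 to 0.459%), too few to compare by distance.

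Around the interval centres, NRF1 matches numbered 0.454 per kb in the step 100 to 50 bp on the upstream side and 0.94 in the next step. They numbered 1.39 per kb in the first 50 bp on the downstream side, which faces the TSS. Further towards the TSS they stayed at 1.33, 1.17 and 1 per kb, out to 200 bp from the centre. ETS matches were densest in the first 50 bp on the downstream side, at 1.13 per kb, and lay at 0.778 in the 50 bp before it. No such profile was made for windows without HA-Tex10. NFY matches ran from 1.39 to 2.17 per kb within 100 bp of the centre.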

How the data were processed

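The authors deposited 1 list of intervals per antibody and a further list, holding start and end positions in bp and no score. Bowtie2 2.3.4.3, SAMtools 1.9, MACS2 2.1.2, HOMER and the build mm10 are named, per the submitters' processing notes, without role or order; the threshold, the use of the input and the handling of replicates are not given in the sources used here. The further list repeats HA-Tex10 intervals that meet H3K4me3, all 617 upstream intervals included, and was not used as a separate measurement. Of the intervals on chromosomes 1 to 19, 0 ended past a GRCm38.p6 chromosome end. Start sites came from GENCODE M21 and sequence from RefSeq GRCm38.p6.

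The centre of an interval is its start plus end, divided by 2 and rounded down, and positions count from 1 in the text. Work was done in Python 3.11.15 with pandas 2.3.3, scipy 1.17.1, numba 0.67.0 and pyfaidx 0.9.0.4; the overlap and distance functions were tested on simulated data. No test was run. Shares have 95% Wilson intervals. The limit for a count of 0 is 3 counts of the total. Intervals under 100 bp were widened to 100 bp to count repeated words.

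Genes named are list genes with an upstream interval, the 15 widest intervals that are not mostly repeated, the 3 on each side of each edge, genes with 2 or more, the widest interval per motif outside chromosomes 8 and 18, and the 10 widest between coding pairs. The upstream intervals, gene lists and motifs were chosen with earlier results of these data known. Some items that this rule names are not reported here. Of the sequences that it allows, 3 were printed, with that of Axin2, and Polr3d and Rps2 were named, after their values were seen; likewise the H3K4me3 cases Mrpl45 and Sde2.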

Additional observations from a re-analysis of the deposited data

How the results depend on the processing

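No paired analysis was possible because the 2 samples of an antibody share 1 list of intervals, which also leaves no replicate to drop. With depth unknown, the absence of an interval does not show that Tex10 was absent. Of 99 values of the main results under alternatives, 79 stayed within their 95% interval (or within 1.5 times for counts) and 20 moved; 16 of the 99 come from alternatives chosen after seeing the data, which left out intervals that contain the TSS or are under 50 bp wide. The motif comparisons by distance, by GC content and with H3K4me3-covered windows were also chosen after seeing the data. The alternatives behind the 99 values reuse many of the same intervals, so a value that stayed is not independent support. Among counts that stayed were 815 upstream intervals with dense windows kept and 476 with the 5'-most TSS, against 617.

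There were 377 upstream intervals when windows with 5 or more were left out, 325 among intervals wider than the median, and also 325 when those containing the TSS were left out. The share of marked genes with one was 4.63%, and became 4.16% when at least 50% of the interval had to lie in H3K4me3, 3.61% with the 5'-most TSS of each gene, 6.03% with dense windows kept, 2.88% with windows of 5 or more left out, 2.5% for wider intervals and 2.44% without those containing the TSS. The share with an opposite-strand TSS went from 20.9% to 17% with the TSS of all annotated genes and to 14.2% without intervals containing the TSS. Mostly repeated intervals made up 4.17% with dense windows kept and 0 by construction when left out. The share inside H3K4me3 was 83.8% with the 50% overlap and 71.1% for wider intervals. The median width was 326 bp for wider intervals and 201 bp without those containing the TSS. In the latter set the median GC content was 61%. The H3K4me3 interval met had a median of 1895 bp with the 50% overlap. The share was at least 1.5 times that of the windows for 6 of 19 motifs in 200 bp. These were NRF1, ETS, CREB, YY1, SOX and T-box. In 300 bp there were 2 (YY1 and SOX), and NRF1 stood at 1.46 times, ETS at 1.4, CREB at 1.41 and T-box at 1.15. All these windows were centred 132 bp upstream. With windows at matched distance, YY1 and CREB were higher in the upstream intervals in 3 of 5 classes and T-box in 2 of 5. T-box rested on 6 upstream intervals and SOX on 5. In the central 100 bp, YY1 stood at 1.19 times against 2, CREB at 3.3 against 1.99, and SOX, with few matches, at 6.43 against 2.43.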
